A study of Mus musculus with 8 samples.

Results

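PTH signals in osteoblasts through the receptor PTH1R, and the transcripts of that receptor and of the proteins that couple and uncouple it were examined in primary mouse calvarial osteoblast cultures. The group held 10 genes, chosen by symbol from the 47706 genes of the count table: the receptor gene Pth1r, the G protein alpha subunit genes Gnas, Gnaq, Gna11, Gna12 and Gna13, the beta-arrestin genes Arrb1 and Arrb2, and the receptor kinase genes Grk5 and Grk6. Each symbol had 1 entry, and all 10 were among the 16736 genes with enough counts to be tested. RNA was sequenced from 8 samples, 4 exposed to PTH and 4 to vehicle. All were differentiated for 7 days, and the exposure lasted 24 hours. The cells came from the skullcaps of neonatal mice and were kept in low serum before the hormone was added. Mouse strain, the vehicle used for the sequenced cultures and the number of animals behind a culture are not stated for this experiment in the sources used here, so the p-values measure the spread between these 8 samples, which may be technical. The labels name adipogenic medium where the methods describe an osteogenic one. The summed level of 11 osteoblast markers lay between 86701 and 125234 CPM (the count scaled to the library's TMM-adjusted total) in the 8 samples, and that of 8 adipocyte markers between 34.8 and 55.5 CPM. Most of the osteoblast sum came from the matrix genes Col1a1 (41640 to 58075 CPM), Col1a2 (28836 to 44931) and Sparc (13603 to 19498).

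Binding of PTH lets the receptor activate Gs, the product of Gnas, which stimulates adenylyl cyclase to make cAMP. The receptor can also activate Gq and G11 (Gnaq and Gna11), which act on phospholipase C beta, and G12 and G13 (Gna12 and Gna13), which act on the cytoskeleton. G protein-coupled receptor kinases phosphorylate the active receptor, and beta-arrestins then bind it, uncouple it from G proteins and lead it into clathrin-coated pits. In osteoblasts this pathway carries both the bone-forming and the resorption-promoting actions of the hormone.

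The receptor transcript showed the largest decrease of the 10 members after PTH, and no member was upregulated. Of the 10 members, 4 were downregulated (Pth1r, Gna12, Grk5 and Gna11), none was upregulated and 6 did not pass the test, by edgeR's quasi-likelihood test with a Benjamini-Hochberg adjusted p under 0.05 over all tested genes. With an unadjusted edgeR p under 0.05, 5 were downregulated and 0 upregulated, and DESeq2 called 4 and 0 after adjustment. Over all tested genes, 45.8% were called in either direction, 23.3% up and 22.5% down, so that the 40% of members called lay near the background. The median log2 fold change of the members was -0.08, against 0.00 for all tested genes, and their median absolute log2 fold change was 0.16, against 0.35. With upper-quartile scaling in place of TMM, which moved the median of all genes to -0.11, the numbers over all genes changed from 3907 up and 3762 down to 3054 up and 5216 down, and 5 members were downregulated.

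**Figure D1:**
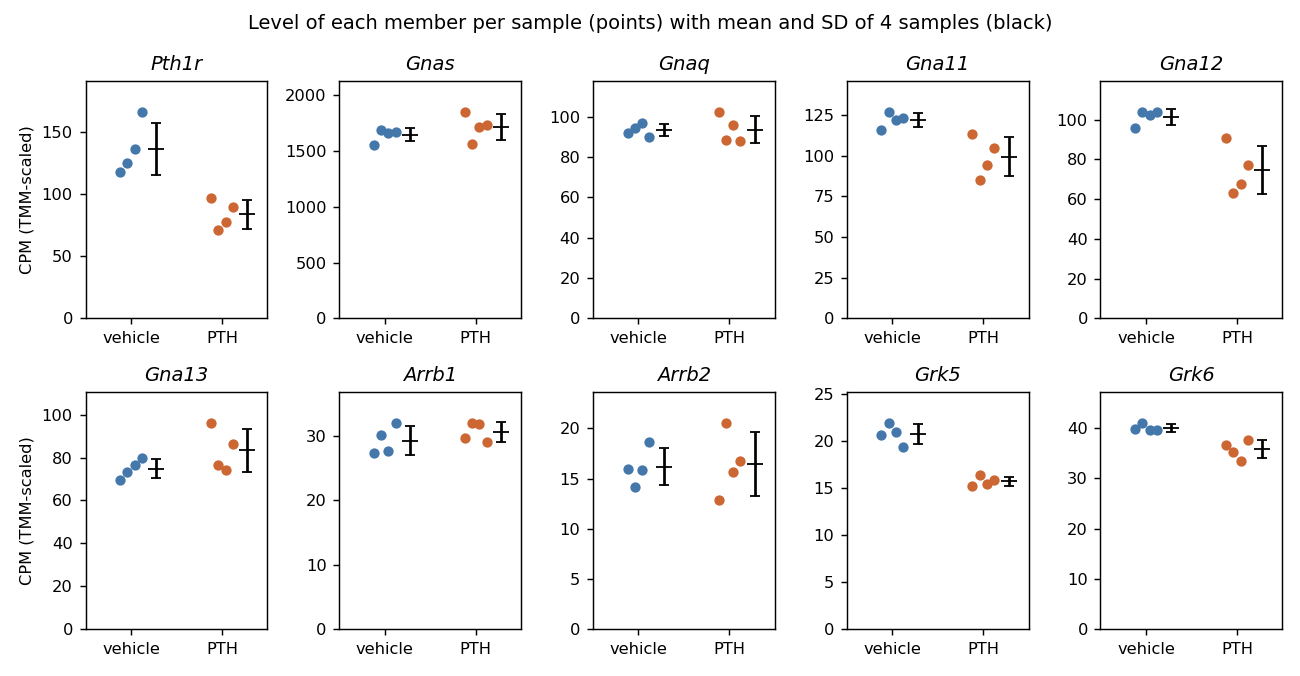
Level of each member in CPM (TMM-scaled, axis from 0) in the 4 vehicle-treated samples (blue points) and the 4 PTH-treated samples (orange points), with mean and SD in black. All PTH-treated samples lie below all vehicle-treated samples for Pth1r, Gna11, Gna12, Grk5 and Grk6, while the points of the other 5 members overlap.

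Pth1r (ENSMUSG00000032492, GRCm38 chromosome 9 from 110722085 to 110747145, minus strand) encodes the receptor itself. It was measured at 118, 125, 136 and 166 CPM in vehicle replicates 1 to 4 and at 96.3, 70.7, 77.6 and 89.8 CPM in PTH replicates 1 to 4. Every PTH-treated sample lay below every vehicle-treated sample, and vehicle replicate 4 was the highest of all. The means were 136 ± 21.1 CPM with vehicle and 83.6 ± 11.6 CPM with PTH (SD, n = 4 each), a log2 fold change of -0.70 (standard error, SE, 0.118, 95% interval -0.96 to -0.44, edgeR adjusted p = 4.43e-04). For 5 members every PTH-treated sample lay below every vehicle-treated one, which held for 21.8% of all tested genes, while no member had PTH above vehicle throughout (21.2% of all genes; 43% in either direction). Without vehicle replicate 4 the log2 fold change was -0.59 (edgeR adjusted p = 0.00139), and over the 8 fits that each left out 1 sample it lay between -0.78 and -0.59. Within the PTH-treated samples its level stood in the order of their total counts, as did those of Gnas, Gna11 and Gna12, and the part of library size in these values was not tested. The gene shares 95 exon bases with Myl3 on the opposite strand, which had 22 to 58 counts per sample. In bulk cultures, fewer cells that express a gene and less of its RNA per cell cannot be told apart.

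Levels of some osteoblast lineage markers were lower with PTH, while most did not pass the test. The osteoblast markers named here were picked after their values were seen. Sp7, a transcription factor required for osteoblast differentiation, lay between 74.8 and 142 CPM with vehicle and between 25.9 and 33.9 CPM with PTH, and Runx2, the lineage's master regulator, between 111 and 123 CPM and between 82.8 and 102 CPM. Dmp1 had a log2 fold change of -1.12 (edgeR adjusted p = 8.06e-04). Of the 11 osteoblast markers, 3 were downregulated and 0 upregulated, and their summed level overlapped between treatments (92698 to 105023 CPM with vehicle, 86701 to 125234 CPM with PTH). Most of that sum came from Col1a1, Col1a2 and Sparc. The osteoblast markers not called had log2 fold changes between -0.43 (Phex) and 0.28 (Alpl). Over all tested genes, 22.5% were downregulated and 23.3% upregulated, which is the background for the marker counts here. The summed level of 10 macrophage markers ranged from 1041 to 1688 CPM with vehicle and from 1632 to 2113 CPM with PTH (3 upregulated, 0 downregulated). That of 5 chondrocyte markers, of which 4 were tested and 2 upregulated, ranged from 316 to 331 CPM and from 369 to 485 CPM. For 5 endothelial markers the ranges were 6.41 to 7.26 and 6.03 to 7.51 CPM (1 upregulated, 1 downregulated). For 5 skeletal muscle markers they were 5.93 to 8.36 and 4.03 to 6.42 CPM (0 upregulated, 1 downregulated). For 8 adipocyte markers they were 39.8 to 55.5 and 34.8 to 54.9 CPM (7 tested, 0 upregulated, 1 downregulated). The adipocyte marker that fell was Pparg, from between 14.7 and 17.9 CPM to between 4.96 and 6.32 CPM (log2 fold change -1.50, edgeR adjusted p = 3.66e-07). Among defining markers at or near 0, Lep, Matn1, Myod1, Myog and Ckm had too few counts to be tested. The part of these differences in the change of Pth1r and of the other members was not tested. Tnfsf11, the gene of the osteoclast-inducing cytokine RANKL and a check of the labels, lay between 0.987 and 1.79 CPM with vehicle and between 115 and 157 CPM with PTH.

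The receptor gene has several transcription starts, and 250 bases before each of them were searched because PTH acts through cAMP and the cAMP response element is a known target site of that pathway. Sequences are those of RefSeq on GRCm38.p6, 5′ to 3′ in the direction of the gene, and are shown for members that fell and for windows that hold no annotated exon of the gene. Capitals mark a match to TGACG, the core of the element, on either strand.
Pth1r, upstream start (chr9:110747146-110747395, - strand): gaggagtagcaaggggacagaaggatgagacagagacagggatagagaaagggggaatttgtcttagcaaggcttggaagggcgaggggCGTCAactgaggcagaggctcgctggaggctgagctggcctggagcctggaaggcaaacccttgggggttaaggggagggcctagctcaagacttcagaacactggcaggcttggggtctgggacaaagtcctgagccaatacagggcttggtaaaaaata
Pth1r, middle start (chr9:110743687-110743936, - strand): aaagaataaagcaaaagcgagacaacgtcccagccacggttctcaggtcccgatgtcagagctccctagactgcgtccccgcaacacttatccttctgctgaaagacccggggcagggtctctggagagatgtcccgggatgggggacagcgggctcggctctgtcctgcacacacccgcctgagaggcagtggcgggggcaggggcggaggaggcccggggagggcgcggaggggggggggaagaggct
Gna12 (chr5:140830432-140830681, - strand): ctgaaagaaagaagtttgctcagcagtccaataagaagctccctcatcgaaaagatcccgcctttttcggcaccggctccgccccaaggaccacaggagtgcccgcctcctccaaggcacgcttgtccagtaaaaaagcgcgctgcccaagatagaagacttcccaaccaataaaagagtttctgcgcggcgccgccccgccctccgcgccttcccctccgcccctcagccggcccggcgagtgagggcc
Grk5 (chr19:60889499-60889748, + strand): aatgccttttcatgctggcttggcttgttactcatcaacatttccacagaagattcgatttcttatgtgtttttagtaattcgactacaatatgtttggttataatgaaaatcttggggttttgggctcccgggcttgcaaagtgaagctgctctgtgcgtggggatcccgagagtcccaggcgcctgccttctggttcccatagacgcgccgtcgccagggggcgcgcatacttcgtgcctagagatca

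The Pth1r window of the upstream start held 1 core match, whose first base lies 161 bases before the start, and the other Pth1r windows, Gna12 and Grk5 held none. In windows from 250 bases before to 50 bases after a start, 8 members had 15 windows in all, and a core match was found in 4 of them, in Pth1r and Gnas. The Gnas windows that begin at 174327499 and 174327518 overlap, and their match is the same site. Over all genes, 20.8% of 32851 such windows held the core and 1.79% the full element TGACGTCA, which contains the core on both strands. The median GC content was 68.0% in the windows of members and 52.7% in all windows. No window of a member held the full element. A match is a match of letters only, and counts per gene do not show which Pth1r start was used in these cultures. Gnaq, Gna11, Gna13 and Grk6 also had windows. Arrb1 and Arrb2 had no entry.

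The hormone itself and its relatives were at or near the limit of detection, while scaffold genes of the receptor changed in both directions. In a list of 7 genes (ligands, the second receptor and scaffolds), Pth and Pth2 had 0 counts in every sample, and Pth2r at most 4. At 95% confidence, a count of 0 in a sample leaves room for an expected count of up to about 3. Pthlh, which encodes the PTH-related protein, had 11 to 43 counts per sample and a log2 fold change of 0.36 (edgeR adjusted p = 0.524). Of the 4 members of this list tested, 2 were upregulated and 1 was downregulated (75% called, against 45.8% of all tested genes). This list and those below were chosen with earlier results of these data known. Ezr, whose product ezrin links receptor scaffolds to actin, had 37.4 ± 2.51 CPM in vehicle and rose to 102 ± 7.68 (log2 fold change 1.44, SE 0.0751, edgeR adjusted p = 1.81e-08). Slc9a3r2, which encodes the PDZ scaffold NHERF2, had 40.9 ± 1.98 CPM in vehicle and fell to 28.1 ± 1.47 (log2 fold change -0.54, SE 0.0688, edgeR adjusted p = 4.80e-05). Its relative Slc9a3r1 rose from 37 ± 3.6 to 51.3 ± 2.59 CPM (log2 fold change 0.47, SE 0.0787, edgeR adjusted p = 4.10e-04).

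Among the G protein alpha subunits that couple to the receptor, Gna12 and Gna11 fell, while Gnas, Gnaq and Gna13 did not pass the test. Gnas (ENSMUSG00000027523, chromosome 2 from 174284320 to 174346744, plus strand) encodes the alpha subunit of Gs from a complex imprinted locus with several first exons. It was measured at 1557, 1688, 1666 and 1674 CPM in vehicle replicates 1 to 4 and at 1851, 1566, 1712 and 1731 CPM in PTH replicates 1 to 4. The samples of both treatments overlapped, and the log2 fold change was 0.06 (SE 0.0777, 95% interval -0.11 to 0.23, edgeR adjusted p = 0.567). The entry sums all products of the locus, and 17.1% of the 75-base stretches of its transcripts occur on either strand in Gm20721 or Nespas. Both overlap Gnas on the opposite strand. Nespas had 7 to 35 counts per sample and Gm20721 had 4 to 11, against 52033 to 94875 for Gnas. The strand setting of the counting is not given in the sources used here.

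Gnaq and Gna11 encode closely related subunits with the same effector, and only the second fell in the test of each gene. Gnaq (chromosome 19 from 16132831 to 16387463, plus strand) ranged from 89.9 to 96.9 CPM in vehicle and from 87.7 to 102 in PTH, with overlap (log2 fold change 0.01, 95% interval -0.14 to 0.15, edgeR adjusted p = 0.949). Gna11 (chromosome 10 from 81528724 to 81545190, minus strand) was measured at 116, 127, 122 and 123 CPM in vehicle replicates 1 to 4 and at 113, 85.2, 94.4 and 105 CPM in PTH replicates 1 to 4. PTH replicate 1 lay just under the lowest vehicle-treated sample. The means of Gna11 were 122 ± 4.48 and 99.3 ± 12.2 CPM (log2 fold change -0.30, SE 0.0842, edgeR adjusted p = 0.0127). Its adjusted p stayed under 0.05 in all 8 fits that left out 1 sample and reached 0.049 without PTH replicate 3.

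Of the other pair, Gna12 fell and Gna13 did not pass the test. Gna12 (chromosome 5 from 140758408 to 140830431, minus strand) was measured at 95.7, 104, 103 and 104 CPM in vehicle replicates 1 to 4 and at 90.6, 63.0, 67.6 and 77.0 CPM in PTH replicates 1 to 4. The treatments did not overlap, and PTH replicate 1 was again the sample nearest to vehicle. The means were 102 ± 3.90 and 74.6 ± 12.2 CPM (log2 fold change -0.44, SE 0.0995, edgeR adjusted p = 0.00312). Gna13 (chromosome 11 from 109362831 to 109401369, plus strand) ranged from 69.5 to 80.0 CPM in vehicle and from 74.3 to 96.3 in PTH, with overlap (log2 fold change 0.16, 95% interval -0.03 to 0.35, edgeR adjusted p = 0.16). Gna12 shares 456 exon bases with Amz1 on the opposite strand, which had 19 to 63 counts per sample against 2095 to 5154 for Gna12. Of the 75-base stretches of Gna12 transcripts, 9.33% occur in another gene on either strand, and that gene is Amz1 alone.

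**Figure D2:**
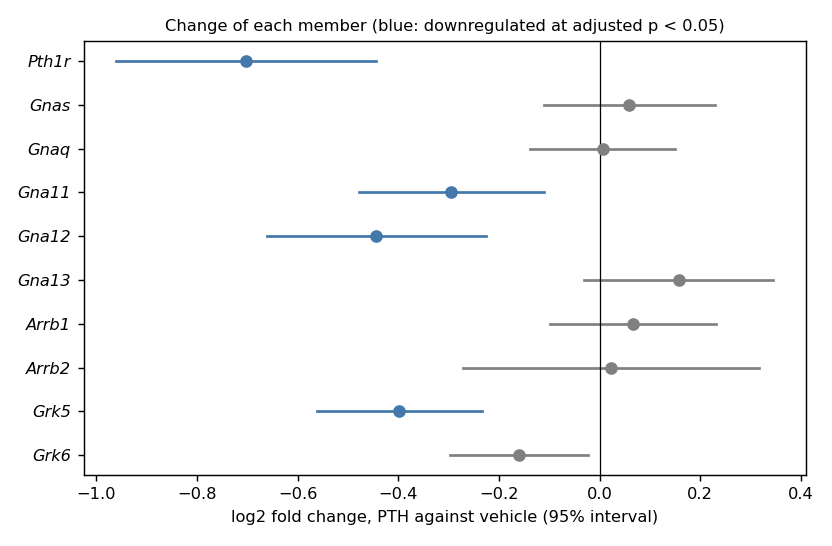
Log2 fold change of each member, PTH against vehicle, with its 95% interval from the edgeR fit (blue where downregulated at an adjusted p under 0.05, grey otherwise). The interval of Pth1r, from -0.96 to -0.44, lies farthest from 0, and those of Gnas, Gnaq, Gna13, Arrb1 and Arrb2 include 0.

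Beta-arrestin transcripts did not pass the test, and their intervals bound the change. Arrb1 (chromosome 7 from 99535466 to 99606771, plus strand) was measured at 27.3, 30.2, 27.7 and 32.1 CPM in vehicle replicates 1 to 4 and at 29.8, 32.1, 32.0 and 29.1 CPM in PTH replicates 1 to 4. The ranges overlapped, and the log2 fold change was 0.07 (95% interval -0.10 to 0.23, edgeR adjusted p = 0.5). Arrb2 (chromosome 11 from 70432635 to 70440828, plus strand) was measured at 16.0, 14.2, 15.9 and 18.7 CPM with vehicle and at 12.9, 20.6, 15.7 and 16.8 CPM with PTH. PTH replicate 1 was the lowest of the 8 samples and PTH replicate 2 the highest. The log2 fold change of Arrb2 was 0.02 with the widest interval of the 10 members (-0.27 to 0.32, edgeR adjusted p = 0.907).

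The receptor kinases differed among themselves: Grk5 fell, Grk6 did not pass the test, and Grk2 and Grk3, which are no members of the group, rose. Grk5 (chromosome 19 from 60889749 to 61095968, plus strand), a kinase bound to the membrane, was measured at 20.6, 21.95, 20.9 and 19.4 CPM in vehicle replicates 1 to 4 and at 15.3, 16.3, 15.5 and 15.9 CPM in PTH replicates 1 to 4. The 4 PTH-treated samples were close to each other, and all lay below vehicle. The means were 20.7 ± 1.05 and 15.7 ± 0.481 CPM (log2 fold change -0.40, SE 0.075, edgeR adjusted p = 9.85e-04). Grk6 (chromosome 13 from 55445072 to 55460927, plus strand) lay between 39.6 and 41.1 CPM with vehicle and between 33.6 and 37.6 CPM with PTH. Its treatments did not overlap either, but the change was smaller (log2 fold change -0.16, 95% interval -0.30 to -0.02, edgeR adjusted p = 0.0557, exact permutation test two-sided p = 0.0286, the smallest that 4 samples against 4 allow). Grk6 passed 0.05 with upper-quartile scaling (log2 fold change -0.27, edgeR adjusted p = 0.003) and without the 10 most abundant genes (-0.17, 0.0488), and over its 16 alternatives the adjusted p lay between 0.003 and 0.142.

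Grk2, listed under its older symbol Adrbk1, encodes the cytosolic kinase that is drawn to the membrane by G beta-gamma. It ranged from 59.8 to 63.3 CPM in vehicle and rose to 85.8 to 98.3 in PTH (log2 fold change 0.57, SE 0.0618, edgeR adjusted p = 1.22e-05). Grk3, its closest relative and listed as Adrbk2, rose from 2.72 ± 0.576 to 7.26 ± 2.12 CPM (log2 fold change 1.41, edgeR adjusted p = 3.08e-04). Grk4 had a log2 fold change of 0.04 (edgeR adjusted p = 0.855), and Grk1 had at most 8 counts in any sample. In the list of 10 other receptor kinases and arrestin relatives, 8 were tested, 4 were upregulated and 2 were downregulated. The share called was 75% of those tested, against 45.8% of all tested genes, in a list chosen with earlier results of these data known. The largest increases were those of the alpha-arrestin genes Arrdc4 (log2 fold change 1.63, edgeR adjusted p = 6.92e-06) and Arrdc3 (1.60, 3.00e-08), and the largest decrease was that of Arrdc2 (-0.88, 8.59e-05). Alpha-arrestins are adaptors of ubiquitin ligases. The number downregulated was 1 without vehicle replicate 4.

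Ratios of related members within a sample do not depend on the scaling between samples, and 4 pairs were compared this way. The ratio of Gna12 to Gna13, per kilobase of transcript, was 2.06, 2.12, 2.01 and 1.95 in vehicle replicates 1 to 4 and 1.41, 1.23, 1.36 and 1.33 in PTH replicates 1 to 4. Its log2 change of -0.61 was the largest of the 4 (exact permutation test, two-sided p = 0.0286, adjusted over the 4 pairs 0.0381). The ratio of Gnaq to Gna11 rose from between 0.442 and 0.48 to between 0.507 and 0.629 (log2 change 0.31, exact p = 0.0286, adjusted 0.0381). Without any 1 of the vehicle replicates, its unadjusted exact p was 0.0571, while the samples of both treatments stayed separate. The ratio of Grk5 to Grk6 fell from between 0.389 and 0.425 to between 0.33 and 0.368 (log2 change -0.23, exact p = 0.0286, adjusted 0.0381). For Arrb1 and Arrb2 the ratio lay between 1.17 and 1.46 with vehicle and between 1.07 and 1.58 with PTH (log2 change 0.06, exact p = 0.83). The samples of both treatments were separate in the first 3 pairs and overlapped in the last. The share of separate ratios among other gene pairs was not computed. Of single tested genes, 43% were separate in either direction, with Gna11, Gna12, Grk5 and Grk6 among them. No stretch of 75 bases was shared between the annotated transcripts of the paired genes.

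**Figure D3:**
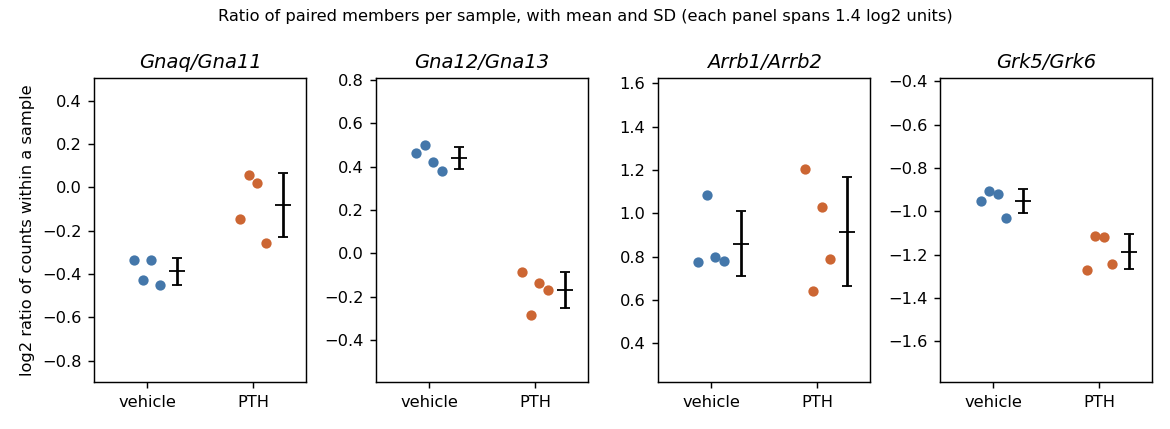
Log2 ratio of the counts of paired members within each sample, with vehicle in blue, PTH in orange and mean and SD in black. Every panel spans the same range. Vehicle and PTH separate for Gnaq/Gna11, Gna12/Gna13 and Grk5/Grk6 and overlap for Arrb1/Arrb2.

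Per kilobase of the median protein-coding transcript, Gnas was the most abundant member in both treatments, at 728 ± 26.7 CPM per kilobase with vehicle and 758 ± 51.7 with PTH. Pth1r was second, at 89.8 ± 13.9 with vehicle and 55.2 ± 7.63 CPM per kilobase with PTH. Next with vehicle came Gna12 (43.0 CPM per kilobase), Gna11 (35.7), Gna13 (21.2), Gnaq (16.5), Arrb1 and Grk6 (both 13.9), Arrb2 (11.2) and Grk5 (5.75). The vehicle ranges of Arrb1 and Grk6 overlapped, and those of all other neighbours in this order were separate. With PTH the order was the same, but the ranges of Gna12 and Gna11, of Gna11 and Gna13, and of Grk6 and Arrb2 overlapped. In vehicle, the level per kilobase of Pth1r was above those of 93% of tested genes with a known length, that of Gnas above 99.5% and that of Grk5 above 44.9%. The order below Pth1r depends on the length used: with the union of all annotated exons, Gnaq lay above Gna13 and Arrb1 was last at 2.62 CPM per kilobase.

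**Figure D4:**
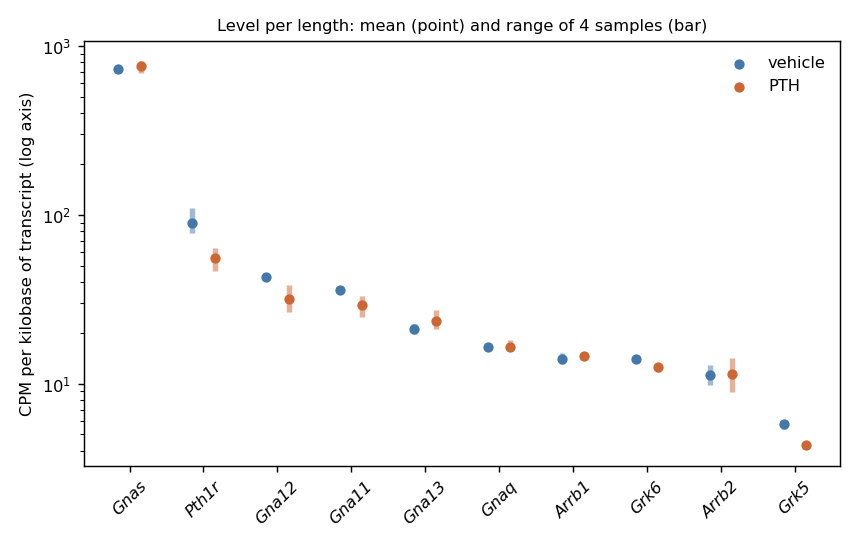
Level of each member in CPM per kilobase of the median protein-coding transcript (log axis) in vehicle (blue) and PTH (orange), with the mean of 4 samples as a point and their range as a bar. Gnas, at 728 CPM per kilobase with vehicle, stands well above Pth1r at 89.8, and Grk5 is the lowest in both treatments.

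Beyond the members, some of the other G alpha subunits rose and some fell, in a share near that of all genes. Of the 10 listed, 9 had enough counts, with 2 upregulated and 2 downregulated (44.4% called, against 45.8% of all tested genes). Their median log2 fold change was -0.03. The inhibitory subunit gene Gnai1 fell from between 75.8 and 91.6 to between 46.6 and 58.2 CPM (log2 fold change -0.65, edgeR adjusted p = 6.94e-05), whereas Gnai2, another inhibitory subunit gene, had a log2 fold change of -0.07 (528 ± 17.8 CPM in vehicle, 502 ± 34.3 in PTH, edgeR adjusted p = 0.439). Gnaz fell further, from 3.40 ± 0.9748 to 0.916 ± 0.249 CPM (log2 fold change -1.88, edgeR adjusted p = 1.83e-04). Gnao1 rose from 26.4 ± 3.10 to 46.8 ± 3.07 CPM (log2 fold change 0.83, edgeR adjusted p = 1.46e-05). Gnal, whose product also stimulates adenylyl cyclase, rose from 4.41 ± 0.469 to 6.73 ± 1.64 CPM (log2 fold change 0.61, edgeR adjusted p = 0.0133).

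Among the beta and gamma subunits, 13 of 15 had enough counts, with 5 upregulated and 1 downregulated (46.2% called, against 45.8% of all tested genes). Their median log2 fold change was 0.10. The gamma subunit gene Gng4 had the largest change of any gene in these lists, with 0.736 to 1.59 CPM in vehicle and 10.02 to 19.4 in PTH (log2 fold change 3.72, SE 0.268, edgeR adjusted p = 3.21e-07). Gnb4 was the gene that fell (31.9 ± 1.48 to 24.96 ± 0.839 CPM, log2 fold change -0.35, edgeR adjusted p = 0.00101). The number upregulated was 3 without PTH replicate 3 or without vehicle replicate 1, 2 or 4.

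Downstream of Gq and G11, and of G12 and G13, 1 of 13 listed genes was upregulated and 4 were downregulated. Rhoa, Rhob and Rhoc, which are in the list but are not direct effectors, were not called. The share called was 38.5%, against 45.8% of all tested genes, and the median log2 fold change was -0.16. Plcb3, a phospholipase C beta activated by Gq and by G beta-gamma, fell from between 63.5 and 67.9 CPM to between 38.0 and 47.0 CPM (log2 fold change -0.69, SE 0.0768, edgeR adjusted p = 1.62e-05). Its relatives Plcb1, Plcb2 and Plcb4 had log2 fold changes of -0.12, -0.42 and 0.02 (edgeR adjusted p = 0.375, 0.555 and 0.893). Trio, a guanine nucleotide exchange factor that Gq activates, was the gene that rose (83.1 ± 3.54 to 109 ± 8.53 CPM, log2 fold change 0.39, edgeR adjusted p = 5.91e-04). In a list of 7 genes, chaperones and activators of G alpha subunits together with Cetn2 and Ppp1ca, 1 was upregulated and 2 were downregulated. The share called was 42.9%, also near the 45.8%. Cetn2 and Ppp1ca, which are counted in that share but are not chaperones or activators of this kind, were not called. Gpsm2, which holds Gi alpha subunits during spindle orientation, fell from between 45.4 and 49.9 CPM to between 15.8 and 18.2 CPM (log2 fold change -1.48, SE 0.0715, edgeR adjusted p = 9.13e-09). Its relative Gpsm1 rose (log2 fold change 0.52, edgeR adjusted p = 9.03e-05).

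Of 17 genes of clathrin endocytosis and of the retromer, which returns receptors from endosomes, 6 were upregulated and 4 were downregulated. The share called was 58.8%, against 45.8% of all tested genes, and the median log2 fold change was 0.08. Arf6, a GTPase of arrestin-dependent receptor uptake and recycling, rose from between 145 and 155 CPM to between 338 and 436 CPM (log2 fold change 1.35, SE 0.0877, edgeR adjusted p = 1.26e-07). The largest decrease was that of the retromer subunit gene Vps26b, from 99.9 ± 3.48 to 70.7 ± 3.54 CPM (log2 fold change -0.50, edgeR adjusted p = 3.56e-05). With upper-quartile scaling, 7 of these genes were downregulated. Over the 7 lists, 21 of 71 tested genes were upregulated and 16 were downregulated, which is 52.1% against the 45.8% of all tested genes. The lists were chosen with earlier results of these data known.

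**Figure D5:**
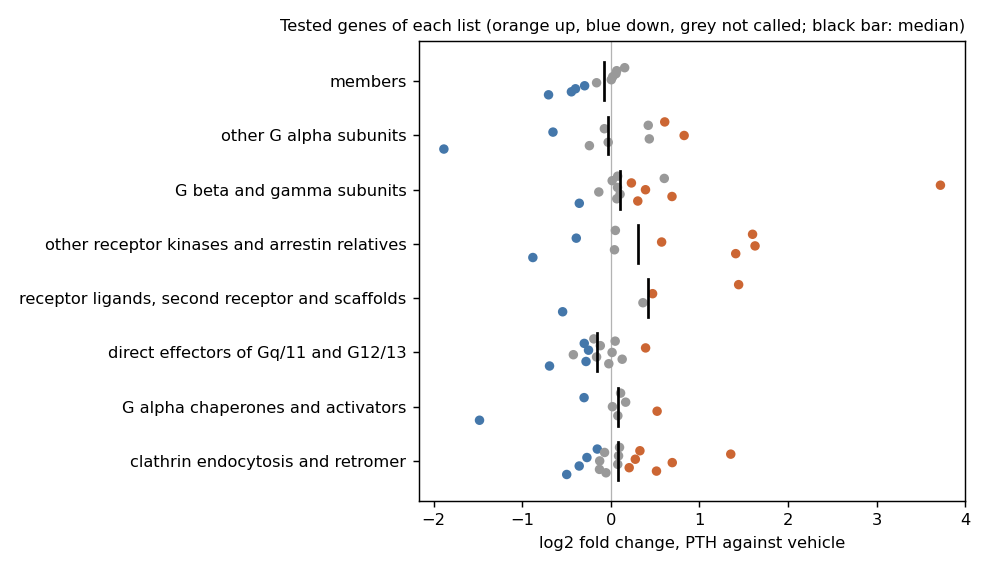
Log2 fold change (PTH against vehicle) of each tested gene among the members and the 7 other lists, with upregulated genes in orange, downregulated genes in blue, others in grey and the median of each list as a black bar. The called members all lie to the left of 0, and Gng4, at 3.72, lies farthest to the right.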

How the data were processed

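RNA was sequenced from 4 PTH-treated and 4 vehicle-treated cultures, grouped by their labels. The authors prepared poly(A) libraries, aligned reads to GRCm38 (mm10 in the submitters' processing notes) with HISAT2 and deposited unscaled counts per gene, which a script distributed with StringTie2 derives from transcript coverage. Versions, annotation, and the read length and strand settings are not given in the sources used here. Total counts per sample lay between 33605610 and 56090654. At the lowest, 543 counts stood behind a member's value. Entries without a symbol held 0.00281% of counts.

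The members and all gene lists were chosen with earlier results of these data known. Genes passing edgeR's filterByExpr (minimum count 10, minimum total 15) were fitted with TMM scaling and treatment as the sole term in edgeR 4.0.16 (two-sided quasi-likelihood F-test, R 4.3.3), and p-values were adjusted by Benjamini-Hochberg over 16736 genes. CPM values use TMM-scaled library sizes. Standard errors and 95% intervals come from the same fit. Single values were compared by exact permutation tests over 70 assignments, on log2(CPM + 0.1) or on log2 ratios of counts + 0.5. Levels between genes are given per kilobase of the median protein-coding transcript of GENCODE M21, which also gave the positions. Older symbols of Grk2, Grk3 and Ric8a were matched through RefSeq synonyms. All 10 members are named, with the largest called change each way of each list and every called kinase, G alpha subunit and phospholipase C beta; other list genes and markers were picked for naming after their values were seen. The 16 alternatives to the fit were DESeq2 1.42.0, its size factors or upper-quartile scaling in edgeR, no filter, the replicate number as a block, each sample left out, counts summed by symbol or halved, and the 10 most abundant genes left out. Both count models were checked on simulated counts. Python 3.11.15 and matplotlib 3.10.9 were used for summaries and plots. All 8 samples entered every comparison.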

Additional observations from a re-analysis of the deposited data

Results flagged for a closer look

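In 28 groups of 4 samples (the 10 members and 4 ratios in each treatment), 3 held a sample whose gap to its nearest neighbour took more of the group's range than Dixon's 95% criterion allows, which chance gives in about 1 of 20 groups. Vehicle replicate 1 had the lowest Gna12 level, 95.7 CPM, where the other vehicle-treated samples had 103 to 104 CPM. Vehicle replicate 2 had the highest Grk6 level, 41.1 CPM, against 39.6 to 39.8 CPM. Vehicle replicate 2 also had a log2 ratio of Arrb1 to Arrb2 of 1.08, against 0.774 to 0.801. No PTH-treated group met the criterion.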

How the results depend on the processing

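Pth1r, Gna11, Gna12 and Grk5 kept their direction and an adjusted p under 0.05 under all 16 alternatives, the fits without 1 sample included. Upper-quartile scaling reversed the sign of members that had not passed the test: Gnas to -0.054, Gnaq to -0.107, Arrb1 to -0.046 and Arrb2 to -0.090 on the log2 scale. The median log2 fold change over the genes of the main fit was -0.001 in that fit. This median was -0.114 with upper-quartile scaling, -0.036 without the filter and -0.012 without the 10 most abundant genes. Without the filter on low counts the log2 fold change was -0.029 for Gnaq and -0.017 for Arrb2, and without the 10 most abundant genes it was -0.005 for Gnaq. With each sample left out it lay between -0.042 and 0.042 for Gnaq and between -0.092 and 0.122 for Arrb2, turning negative without PTH replicate 1 (-0.042), PTH replicate 3 (-0.008), vehicle replicate 1 (-0.006) or vehicle replicate 4 (-0.013) for Gnaq and without PTH replicate 2 (-0.092) or vehicle replicate 2 (-0.046) for Arrb2. The log2 change of the Arrb1 to Arrb2 ratio lay between -0.040 (without PTH replicate 1) and 0.148. The Gnaq to Gna11 ratio kept its direction with each sample left out (log2 change 0.261 to 0.365). The samples of both treatments stayed separate in this ratio each time. Its unadjusted exact permutation p was 0.0286 without any 1 PTH replicate and 0.0571 without any 1 vehicle replicate (log2 change 0.324, 0.293, 0.325 and 0.286 without vehicle replicates 1 to 4). For Gna12 to Gna13 and Grk5 to Grk6 it was 0.0286 in all 8 such fits. The number of upregulated beta and gamma subunits was 3 without the filter and with upper-quartile scaling, and it lay between 3 and 4 with each sample left out. The downregulated receptor kinases and arrestin relatives numbered 1 to 2 with each sample left out, and 7 endocytosis and retromer genes were downregulated with upper-quartile scaling. The cause of these changes was not tested. With the union of annotated exons as length, vehicle levels were 147 (Gnas), 46.5 (Pth1r), 29.8 (Gna11), 29.7 (Gna12), 15.1 (Gnaq), 11.7 (Gna13), 9.53 (Grk6), 5.69 (Arrb2), 2.94 (Grk5) and 2.62 (Arrb1) CPM per kilobase.

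Samples of the same replicate number did not deviate together: the correlation of their deviations from the treatment means, across genes, lay between -0.044 and 0.032, and 1 of 8 samples correlated best with its own number. With the replicate number as a block, 4 members were downregulated and 0 upregulated, the log2 fold change of Pth1r was -0.70 (edgeR adjusted p = 6.42e-04), and 3571 genes rose and 3432 fell over the whole table. No call on a member changed with the block. Paired by replicate number, the log2 changes of the ratios were 0.307 (Gnaq to Gna11), -0.609 (Gna12 to Gna13) and -0.234 (Grk5 to Grk6), each with an exact sign-flip p of 0.125, the smallest that 4 pairs allow.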

Other observations

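Within the 4 PTH-treated samples, the CPM levels of Pth1r, Gnas, Gna11 and Gna12 stood in the order of the samples' total counts (PTH replicates 1, 4, 3 and 2, from 56090654 down to 33605610 counts). Of all tested genes, 12.3% stood in that order and 11.4% in the reverse one. PTH replicate 1, with the highest total count of the 8 samples, was still below every vehicle-treated sample for Pth1r, Gna11 and Gna12. The part of library size in these levels was not tested.

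Among 14069 tested genes averaging 1 CPM or more, those whose log2 levels followed Pth1r most closely over the 8 samples were Slc8a3 (Pearson's r = 0.996), Hpgd (0.993) and Mospd3 (0.99), and those most opposed were Gm6055 (-0.989), Kif13b (-0.987) and Igf1r (-0.987). Slc8a3 encodes a sodium-calcium exchanger, Hpgd the enzyme that inactivates prostaglandins and Igf1r the receptor of insulin-like growth factor. Among the members, r with Pth1r was 0.936 for Gna12, 0.908 for Gna11, 0.847 for Grk6 and 0.777 for Grk5, and it lay between -0.304 and 0.066 for the other 5. These values are descriptions over 8 samples that share the treatment contrast.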
